A study of Mus musculus with 18 samples.

Results

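The genes of glycolysis and pyruvate entry were measured by RNA-seq in J774.1 cells, a mouse macrophage line, with and without the C-terminal binding proteins CTBP1 and CTBP2. They were taken by symbol from a list of 33 genes for glucose uptake, glycolysis, lactate handling and the pyruvate dehydrogenase complex, a list drawn up because CTBPs bind NADH. Of these, 32 symbols were found, on 33 of the 18204 rows of the table, since Aldoa is listed under 2 identifiers; Ldhb was not analysed here. All 33 rows passed the filter on low values, which left 16383 genes for the tests. The 18 samples formed 6 groups of 3: wildtype cells and Ctbp1/2dKO cells (dKO), each kept for 4 h with vehicle, with 1.5 mM MTOB (4-methylthio-2-oxobutanoate, a substrate analogue of the CTBP dehydrogenase domain) or with 250 µM 4-Cl-HIPP (a chlorophenyl hydroxyimino acid directed at the same domain). All groups were grown in the same high-glucose medium with serum. In the dKO cells both genes carry a frameshift and a premature stop introduced with Cas9, and wildtype as well as dKO cells came from single-cell outgrowth. How many clones stand behind each genotype is not given in the sources used here, so genotype and clone cannot be told apart. MTOB was dissolved in PBS and 4-Cl-HIPP in DMSO, and 1 vehicle group per genotype (PBS/DMSO) served both inhibitors, so the comparisons with the 2 inhibitors share their controls.

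Glycolysis splits glucose into pyruvate in the cytosol and turns NAD+ into NADH at the glyceraldehyde-3-phosphate dehydrogenase step. Lactate dehydrogenase regenerates NAD+ by reducing pyruvate to lactate, which leaves the cell through monocarboxylate transporters, while the mitochondrial pyruvate carrier and the pyruvate dehydrogenase complex bring the remaining pyruvate into the citric acid cycle. Macrophages are known for high glycolytic flux when activated, and CTBPs are transcriptional corepressors whose dehydrogenase fold binds NAD+ and NADH. The questions were whether RNA levels of these genes differ when CTBPs are lost, whether either inhibitor moves them, and whether the inhibitor effects differ between cells with and without CTBPs.

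Promoter sequence was read from the GRCm39 mouse genome for the member genes, all 33 rows of which had their identifier in the GENCODE M39 annotation. The window searched was the 250 bases before the start of each gene's canonical transcript, and the start used by these cells is not given by gene-level values. Below stand 3 of these windows, for genes that passed the test in all 3 comparisons of dKO with wildtype: Slc2a1, the glucose transporter that was higher in dKO cells and also rose with MTOB, and Pdha1 and Ldha, which were lower in dKO cells. Each is given 5′ to 3′ on the gene's own strand without bases of any annotated exon. Capitals mark ACGTG on either strand, a core form of the site bound by hypoxia-inducible factors. Other forms of that core were not searched, so a window without capitals may still hold one.
Slc2a1 (chr4:118965658-118965907, plus strand): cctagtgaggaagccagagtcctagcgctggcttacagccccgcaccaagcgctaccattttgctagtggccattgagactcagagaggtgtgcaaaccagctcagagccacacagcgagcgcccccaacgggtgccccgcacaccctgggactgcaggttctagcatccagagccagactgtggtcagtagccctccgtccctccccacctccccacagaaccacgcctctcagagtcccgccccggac
Pdha1 (chrX:158921427-158921675, minus strand): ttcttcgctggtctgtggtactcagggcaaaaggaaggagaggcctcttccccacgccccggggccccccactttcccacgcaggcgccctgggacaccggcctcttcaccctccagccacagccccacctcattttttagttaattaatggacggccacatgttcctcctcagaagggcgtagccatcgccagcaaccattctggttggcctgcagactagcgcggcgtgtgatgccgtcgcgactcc
Ldha (chr7:46495013-46495131, plus strand): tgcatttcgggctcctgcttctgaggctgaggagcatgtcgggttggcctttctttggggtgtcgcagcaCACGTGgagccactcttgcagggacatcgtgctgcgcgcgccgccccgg
The Slc2a1 and Pdha1 windows held no ACGTG. The whole Ldha window, from 46495013 to 46495262, held 5 matches, of which 2 lie in the stretch printed, as the same CACGTG read on both strands. CACGTG is the E-box of MYC and ChREBP and contains ACGTG on each strand, so the 2 motifs overlap. In all, 11 of the 33 member windows (33.3%) held ACGTG and 3 held CACGTG (9.09%), against 19.2% and 6.83% of the windows of 16293 tested genes found in the annotation. Among the 13 rows that passed the test in some comparison below, 3 held ACGTG (Ldha, Pgk1 and Slc16a1), and among the 20 that passed in none, 8 did. A match describes these letters and does not show binding.

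The values are TPM, a transcript abundance scaled for transcript length and for the total of each sample; they sum to between 999766 and 999897 over the genes listed in each sample, so the read depth behind them is unknown. The edited genes were read first as a check of the labels. Ctbp1 was at 218 ± 18.1 TPM (SD, n = 3) in wildtype and 25.1 ± 0.64 TPM in dKO cells under vehicle, a log2 fold change of -3.07, and Ctbp2 was at 92.6 ± 4.57 and 75.9 ± 3.13 TPM, a log2 fold change of -0.28. A premature stop need not remove the RNA, so Ctbp2 RNA is a weak check. Of 8 macrophage markers, 7 were listed and all of those exceeded 1 TPM, with a summed level of 2216 to 2568 TPM over the samples. Of 4 T cell, 3 B cell and 4 fibroblast markers only 1 each was listed (Cd4, Cd79a and Col1a1), at most 1.05 TPM in any sample. Of 3 epithelial markers 0 were listed. Single macrophage markers differed between the groups. Adgre1 (F4/80) was at 29.1 ± 5.55 TPM with vehicle and 102 ± 4.43 TPM with MTOB in wildtype and at 8.93 ± 1.04 and 12.6 ± 1.12 TPM in dKO cells, Lyz2 was at 520 ± 14.2 and 673 ± 13.6 TPM and at 488 ± 7.43 and 574 ± 10.7 TPM, and Itgam (CD11b) was at 15.8 ± 4.51 TPM in wildtype and 47.9 ± 3.64 TPM in dKO cells with vehicle. In wildtype Csf1r had a lower mean with MTOB (769 ± 36.6 against 896 ± 48.7 TPM). So it did in dKO cells (758 ± 126 against 860 ± 26.4 TPM), and neither was called. Of the 7 listed, 3 were called higher with MTOB in wildtype and 2 in dKO cells, beside 3.80% and 3.04% of all tested genes. With 4-Cl-HIPP 0 were called (1 in wildtype and 2 in dKO cells had an unadjusted p below 0.05 in the limma fit). In each comparison of dKO with wildtype 4 were called, Adgre1 lower and Itgam and Cd68 higher in all 3. The remaining call was Fcgr1, higher, under vehicle and Lyz2, lower, under MTOB and 4-Cl-HIPP. Of all tested genes 7.01%, 6.98% and 6.60% were called higher under vehicle, MTOB and 4-Cl-HIPP, and 3.72%, 4.18% and 3.63% lower. The part of these markers in the differences below was not tested.

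Under vehicle, the enzymes of the lower steps of glycolysis were among the most abundant RNAs of wildtype cells. Pkm, pyruvate kinase, stood at 5529 ± 191 TPM and ranked 11 among the tested genes. Gapdh, the enzyme that makes NADH, followed with 2823 ± 103 TPM, then Aldoa, the main aldolase, with 1596 ± 48.3 TPM and Ldha, the muscle-type subunit of lactate dehydrogenase, with 1587 ± 63.9 TPM. The ranges of Aldoa and Ldha overlapped, so their order is not set. Eno1, Pgk1, Pgam1, Tpi1 and Gpi1, which carry out single steps of the same chain, lay between 568 and 945 TPM, in that order and with no overlap between neighbours. These 9 genes were the members above 500 TPM.

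A gap separated them from the other members, among them transporters, regulators, hexokinases, phosphofructokinases and the subunits of the pyruvate dehydrogenase complex. The dihydrolipoamide dehydrogenase subunit Dld stood at 172 ± 5.52 TPM, and Slc16a1 and Slc16a3, the transporters MCT1 and MCT4 that carry lactate and pyruvate across the plasma membrane, stood at 149 ± 3.97 and 147 ± 14.3 TPM with overlapping ranges. Hexokinase Hk1 stood at 126 ± 5.09 TPM and the glucose transporter Slc2a1 (GLUT1) at 60.7 ± 4.63 TPM. In all, 6 members lay between 100 and 500 TPM, 14 between 10 and 100 TPM and 4 below 10 TPM: Pfkfb4, Pdp1, Hk3 and the second Aldoa row. The median of the members was 85.4 TPM, against 10.2 TPM over the tested genes. Of the 32 neighbouring pairs in the order of levels, 13 overlapped in range and 19 did not. Several of these genes have processed pseudogenes or near copies, so their exact levels are uncertain. For Eno1 the near-identical Eno1b was listed at 814 ± 19.8 TPM beside 945 ± 39.8 TPM for Eno1. The second Aldoa row (4.86 ± 0.582 TPM) bears the name Gm57854 in the GENCODE M39 annotation and overlaps Aldoa in part. It runs from 126393858 to 126408507 on chromosome 7, and Aldoa from 126393822 to 126399923. How reads of the overlap were shared between the 2 rows is not given by gene-level values.

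**Figure D1:**
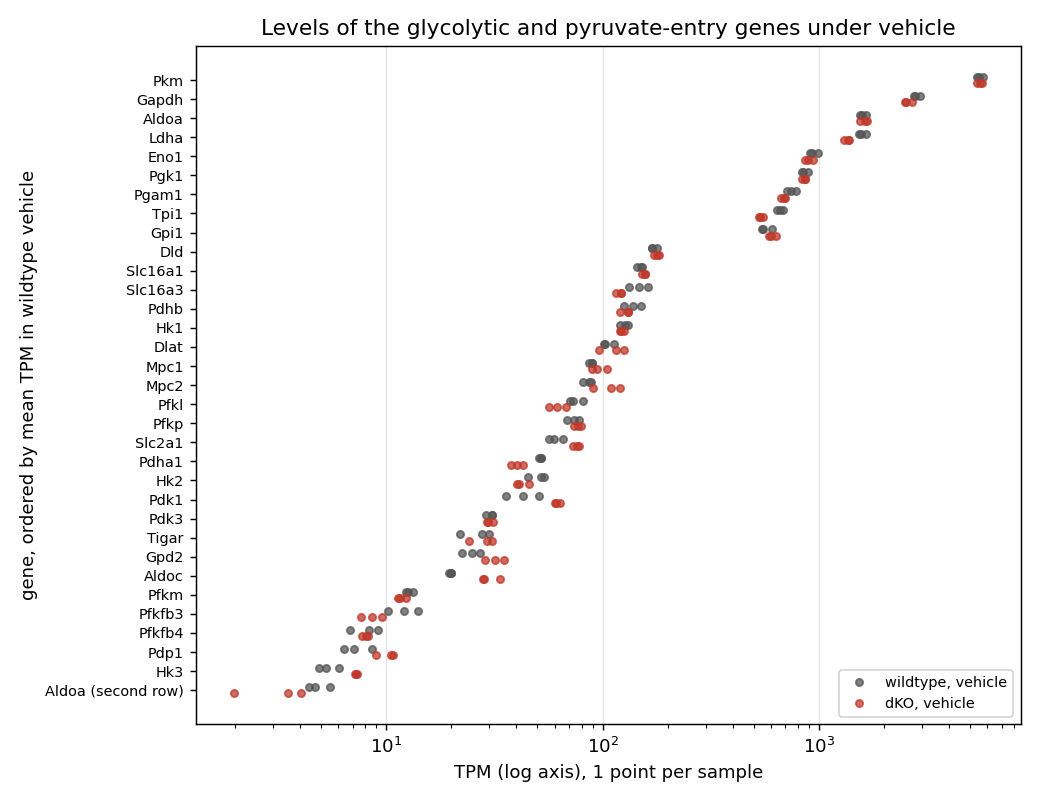
TPM of the member genes under vehicle on a log axis, 1 point per sample, wildtype in grey and dKO in red, ordered by the wildtype mean. Pkm is highest at 5364 to 5739 TPM in wildtype cells, and Aldoc, at 19.6 to 19.9 TPM in wildtype and 28.0 to 33.6 TPM in dKO cells, is among the 16 of 33 rows whose wildtype and dKO samples do not overlap, as did not those of 26.1% of all tested genes.

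MTOB raised RNA of the glucose transporter Slc2a1 and lowered that of the hexokinase Hk1 in both genotypes. Most of the chain stayed within narrow limits, and the hexokinases Hk2 and Hk3 were not called. Slc2a1 (ENSMUSG00000028645; chr4:118965908-118996365, plus strand) stood at 56.8, 59.4 and 65.8 TPM in wildtype cells with vehicle and at 79.1, 83.2 and 78.3 TPM with MTOB. In dKO cells it stood at 72.8, 77.9 and 76.5 TPM with vehicle and at 104, 103 and 96.7 TPM with MTOB. In each genotype all MTOB samples were above all vehicle samples. The log2 fold change on the scale of log2(TPM + 1) was 0.40 (SE 0.07) in wildtype and 0.41 (SE 0.07) in dKO cells, with adjusted p of 0.00231 and 0.00214 (limma, Benjamini-Hochberg over all tested genes).

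Hk1, the hexokinase bound to mitochondria that phosphorylates glucose on entry (ENSMUSG00000037012; chr10:62104621-62215687, minus strand), moved the opposite way. Its values were 127, 130 and 120 TPM with vehicle and 102, 102 and 97.5 TPM with MTOB in wildtype cells. In dKO cells they were 120, 121 and 126 TPM with vehicle and 95.4, 93.7 and 98.7 TPM with MTOB. The vehicle and MTOB ranges were again apart in both genotypes. Hk1 fell by 0.32 on the log2 scale in wildtype (SE 0.04, limma adjusted p = 0.000118) and by 0.35 in dKO cells (SE 0.04, limma adjusted p = 6.87e-05). Slc2a1 and Hk1 were the members that passed the test with MTOB in both genotypes, 2 of the 7 that passed in either. Of all tested genes, 1.98% were called higher and 1.70% lower in both genotypes.

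The other calls with MTOB were made in 1 genotype each, and these depended on the settings. MCT1 (Slc16a1; chr3:104545811-104565780, plus strand) was at 151, 153 and 145 TPM with vehicle and 165, 157 and 161 TPM with MTOB in wildtype cells, a log2 rise of 0.11 (SE 0.03, limma adjusted p = 0.0441) that was lost under 9 of 13 alternative settings, leaving out single vehicle or MTOB samples among them. Its values in dKO cells were 158, 152 and 158 TPM with vehicle and 159, 159 and 164 TPM with MTOB, a log2 fold change of 0.05. MCT4 (Slc16a3; chr11:120838846-120851694, plus strand) was at 115, 122 and 122 TPM with vehicle and 136, 165 and 154 TPM with MTOB in dKO cells, a log2 rise of 0.33 (SE 0.08, limma adjusted p = 0.0209). In wildtype cells it was at 147, 133 and 162 TPM and at 184, 170 and 180 TPM. There the log2 fold change of 0.28 missed the threshold (limma adjusted p = 0.0528) but passed it under 5 of 13 alternative settings, while the call in dKO cells was lost under 6 of 13, leaving out any 1 of the vehicle samples or MTOB replicate 2 or 3 among them (up to 0.119). The vehicle and MTOB samples did not overlap in either genotype.

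Pdk1, a kinase that switches off pyruvate dehydrogenase (ENSMUSG00000006494; chr2:71703488-71734202, plus strand), was at 63.3, 60.8 and 60.1 TPM with vehicle and 37.6, 49.6 and 42.3 TPM with MTOB in dKO cells. It fell by 0.51 on the log2 scale (SE 0.12, limma adjusted p = 0.0202). In wildtype cells it was at 35.9, 43.0 and 50.7 TPM with vehicle and 34.9, 42.6 and 44.5 TPM with MTOB, ranges that overlapped, with a log2 fold change of -0.08. Also in dKO cells, Gpi1, glucose-6-phosphate isomerase, fell by 0.16 (608 ± 24.0 to 545 ± 21.8 TPM) and Pgk1, phosphoglycerate kinase, rose by 0.14 (855 ± 13.6 to 945 ± 28.6 TPM) on the log2 scale, with limma adjusted p of 0.0456 and 0.00593. The call of Gpi1 was lost under 8 of 13 alternative settings (up to 0.187), leaving out any 1 of the vehicle samples or MTOB replicate 1 or 2 among them, and that of Pgk1 under 2 (up to 0.0955). The call of Pdk1 was lost under 6 (up to 0.0900), leaving out any 1 of the vehicle samples or MTOB replicate 1 or 3 among them.

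In all, 2 members were called higher and 1 lower with MTOB in wildtype cells, where 3.80% of all tested genes were called higher and 3.46% lower. In dKO cells 3 members were called higher and 3 lower, against 3.04% and 3.54% of all genes (498 and 580 genes, or 589 and 464 under median-ratio scaling). No member passed the fold change of 1.5 in addition, which 2.01% and 1.63% of all genes did; without dKO MTOB replicate 2, Pdk1 did in dKO cells. The members' median log2 fold change was -0.01 in wildtype and 0.00 in dKO cells, beside -0.01 and -0.01 over all genes, and 0.01 and 0.02, beside 0.00 and 0.00, under median-ratio scaling. For 32 of the 33 rows in wildtype and 31 in dKO cells the 95% interval of the fold change lay wholly within 1.5-fold in either direction; the exceptions were the second Aldoa row in both and Pdk1 in dKO cells. The calls for Pdk1, Slc16a3, Gpi1 and Pgk1 in dKO cells were lost when only the 2 groups compared were fitted, which left 2 of 6, and leaving out any 1 of the dKO vehicle samples left 3.

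**Figure D2:**
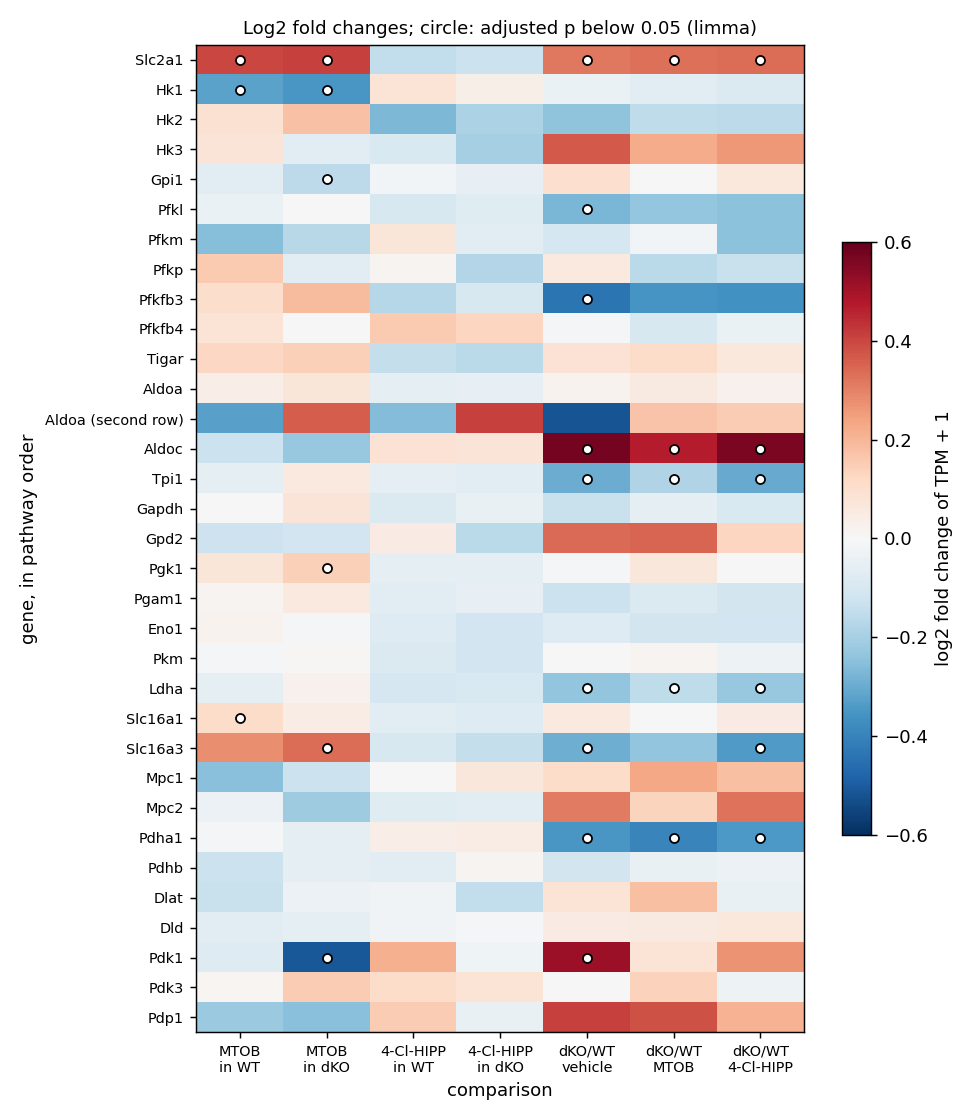
Log2 fold changes of TPM + 1 for the member rows (vertical axis, in pathway order) in the 7 comparisons of 2 groups (horizontal axis), from blue for lower to red for higher, with a circle where the limma adjusted p was below 0.05. Slc2a1 is circled in 5 columns and the 2 columns of 4-Cl-HIPP hold no circle.

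4-Cl-HIPP moved no member past the threshold in either genotype. The smallest limma adjusted p among the members was 0.395 in wildtype and 0.137 in dKO cells, and 3 and 5 members had an unadjusted p below 0.05, beside 1341 and 1388 of all tested genes. Few genes of any kind were called with this inhibitor: 0.324% higher and 0.0427% lower in wildtype cells, and 0.403% higher and 0.0977% lower in dKO cells (66 and 16 genes, or 64 and 29 under median-ratio scaling), with 0.140% and 0.153% past the fold change of 1.5 as well. The members' log2 fold changes ran from -0.27 to 0.22 in wildtype and from -0.20 to 0.41 in dKO cells. In both genotypes 32 of the 33 intervals lay within 1.5-fold, the second Aldoa row being the exception.

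Within those limits more fold changes were below 0 than above it with 4-Cl-HIPP, 23 of 33 in wildtype and 25 in dKO cells, with medians of -0.06 and -0.06, beside 0.01 and 0.00 over all genes. Without wildtype vehicle replicate 3 the wildtype count was 20 and the median -0.03. All 9 members above 500 TPM were below 0 in both genotypes. For Gpi1 in wildtype cells that sign rests on vehicle replicate 3. Its values were 544, 554 and 606 TPM with vehicle and 536, 581 and 568 TPM with 4-Cl-HIPP. Pkm was at 5364, 5485 and 5739 TPM with vehicle and 5161, 5082 and 5388 TPM with 4-Cl-HIPP in wildtype cells, ranges that overlapped. In dKO cells it was at 5353, 5647 and 5582 TPM with vehicle and 5070, 5244 and 5010 TPM with 4-Cl-HIPP, which did not overlap. Its log2 fold changes were -0.09 (95% interval -0.15 to -0.02) and -0.11 (-0.18 to -0.05), neither past the adjusted threshold. The summed TPM of the members made up 1.68 ± 0.045% of the library with vehicle and 1.60 ± 0.035% with 4-Cl-HIPP in wildtype cells, and 1.62 ± 0.041% and 1.53 ± 0.019% in dKO cells. This share, for which no test was run, was 1.68 ± 0.015% and 1.65 ± 0.037% with MTOB. In bulk RNA a change in the number of cells of one state and a change of RNA per cell cannot be told apart.

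Slc2a1 and Hk1, the members called with MTOB in both genotypes, had values of the other sign with 4-Cl-HIPP, none of them called. Slc2a1 was at 54.7, 48.5 and 61.4 TPM in wildtype and 71.6, 66.9 and 68.6 TPM in dKO cells with 4-Cl-HIPP, log2 fold changes of -0.15 (95% interval -0.30 to 0.01) and -0.13 (-0.28 to 0.02). Hk1 was at 126, 134 and 141 TPM and at 127, 125 and 125 TPM, log2 fold changes of 0.08 (0.00 to 0.17) and 0.04 (-0.05 to 0.12). Beside these stand the MTOB values of 0.40 and 0.41 for Slc2a1 and -0.32 and -0.35 for Hk1. The inhibitors were given at different concentrations, 1.5 mM and 250 µM, so the values are set side by side and were not tested against each other.

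Loss of CTBPs went with more RNA for the glucose transporter Slc2a1 and for aldolase C, whichever treatment was compared. Under each treatment it also went with less RNA for triose phosphate isomerase, lactate dehydrogenase A and the pyruvate dehydrogenase E1 alpha subunit. These 5 genes, Slc2a1, Aldoc, Tpi1, Ldha and Pdha1, passed the test in all 3 genotype comparisons, which share no samples, out of 9 that passed in any. The 2 higher and 3 lower stand beside 4.14% and 1.82% of all tested genes called higher and lower in all 3. Under MTOB the call of Tpi1 was lost on leaving out any 1 of the wildtype samples or dKO replicate 3, and that of Ldha without wildtype replicate 1 or dKO replicate 3. Slc2a1, whose values stand above, was higher in dKO cells by 0.32, 0.33 and 0.33 on the log2 scale under vehicle, MTOB and 4-Cl-HIPP, with limma adjusted p of 0.00775, 0.00584 and 0.00577. The wildtype and dKO ranges were apart under each treatment. Slc2a6, a hexose transporter outside the member list, went the other way under vehicle, from 28.7 ± 0.392 TPM in wildtype to 16.6 ± 2.11 TPM in dKO cells.

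Aldoc, the brain-type aldolase (ENSMUSG00000017390; chr11:78213619-78218889, plus strand), held the highest fold change of any member in each genotype comparison. It was at 19.9, 19.8 and 19.6 TPM in wildtype and 28.0, 28.3 and 33.6 TPM in dKO cells under vehicle. Under MTOB the values were 17.5, 19.0 and 17.6 against 27.3, 26.2 and 22.7 TPM, and under 4-Cl-HIPP 21.8, 20.0 and 21.3 against 32.6, 30.8 and 31.2 TPM. The log2 fold changes were 0.57, 0.47 and 0.56 (SE 0.08 each), with limma adjusted p of 0.000128, 0.000788 and 0.000149. The value under vehicle lies just inside a 1.5-fold change on the log2(TPM + 1) scale, where the added 1 TPM understates the change of a gene at this level, and the ratio of mean TPM was 1.52.

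Pdha1, the catalytic E1 alpha subunit of pyruvate dehydrogenase on the X chromosome (ENSMUSG00000031299; chrX:158904237-158921426, minus strand), was at 51.0, 52.2 and 51.7 TPM in wildtype and 37.9, 43.1 and 40.2 TPM in dKO cells under vehicle. Under MTOB it was at 48.2, 54.0 and 51.8 against 40.3, 37.7 and 38.2 TPM, and under 4-Cl-HIPP at 50.2, 55.4 and 53.8 against 42.2, 41.9 and 40.7 TPM. Every dKO sample was below every wildtype sample. The log2 fold changes were -0.35, -0.40 and -0.34 (SE 0.06 each), with limma adjusted p of 0.000479, 0.000135 and 0.000543. The other subunits of the complex passed in no comparison: Pdhb, Dlat and Dld had vehicle log2 fold changes of -0.12, 0.09 and 0.05.

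Ldha (chr7:46490899-46505061, plus strand) was at 1562, 1539 and 1659 TPM in wildtype and 1312, 1357 and 1373 TPM in dKO cells under vehicle, and its log2 fold changes in the 3 comparisons were -0.24, -0.15 and -0.23. Tpi1, which interconverts the 2 triose phosphates (chr6:124787549-124791273, minus strand), was at 644, 660 and 681 against 527, 553 and 533 TPM under vehicle, with log2 fold changes of -0.30, -0.18 and -0.30. Their limma adjusted p ran from 0.000477 to 0.0136 for Ldha and from 0.000590 to 0.0264 for Tpi1. In both genes dKO samples lay below wildtype samples under each treatment.

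Regulators and transporters made up most of the remaining genotype calls. Pfkfb3, which makes the activator fructose 2,6-bisphosphate (ENSMUSG00000026773; chr2:11476244-11558888, minus strand), was at 12.0, 10.1 and 14.0 TPM in wildtype and 7.69, 8.58 and 9.56 TPM in dKO cells under vehicle, lower by a log2 fold change of -0.44 (SE 0.12, limma adjusted p = 0.0319). Under MTOB its values were 13.8, 10.9 and 14.4 against 10.1, 9.97 and 9.69 TPM and under 4-Cl-HIPP 11.1, 9.50 and 11.1 against 8.76, 6.88 and 8.35 TPM. Both ranges were apart, but with log2 fold changes of -0.35 and -0.37 neither passed (limma adjusted p = 0.0855 and 0.0800). Pfkl, the liver-type phosphofructokinase that this product activates, was lower under vehicle (62.1 ± 5.57 against 75.3 ± 5.41 TPM, log2 fold change -0.27, limma adjusted p = 0.0414). The Pfkfb3 call under vehicle was lost under 5 of 13 alternative settings (up to 0.153), without wildtype replicate 1 or 3 or dKO replicate 1 or 2 among them, and that of Pfkl under 6 (up to 0.179), without wildtype replicate 2 or 3 or dKO replicate 1 or 3 among them.

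Pdk1 was higher in dKO cells under vehicle by a log2 fold change of 0.51 (SE 0.12, limma adjusted p = 0.0121), the wildtype samples at 35.9 to 50.7 TPM and the dKO samples at 60.1 to 63.3 TPM. Under MTOB its log2 fold change was 0.08, with 34.9 to 44.5 against 37.6 to 49.6 TPM, and under 4-Cl-HIPP it was 0.27, with 53.8, 52.4 and 43.8 against 60.9, 60.8 and 59.4 TPM; neither passed the test. MCT4 (Slc16a3) was lower in dKO cells by -0.29 under vehicle and by -0.34 under 4-Cl-HIPP on the log2 scale (limma adjusted p = 0.0295 and 0.0117), the latter from 129, 130 and 154 TPM in wildtype and 105, 112 and 108 TPM in dKO cells. Under MTOB its log2 fold change was -0.23 (limma adjusted p = 0.0835). The MCT4 call under vehicle was lost under 7 of 13 alternative settings (up to 0.144), without wildtype replicate 1 or 3 or any 1 of the dKO samples among them, and that under 4-Cl-HIPP under 3 (up to 0.0654), without wildtype replicate 3 or dKO replicate 1 among them. The Pdk1 call under vehicle was lost under 2, without wildtype replicate 1 being one of them. MCT1 (Slc16a1) passed in none of the 3. The Pdk1 and MCT4 calls with MTOB in dKO cells use the same dKO vehicle samples as the genotype calls under vehicle. They are therefore not separate findings.

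**Figure D3:**
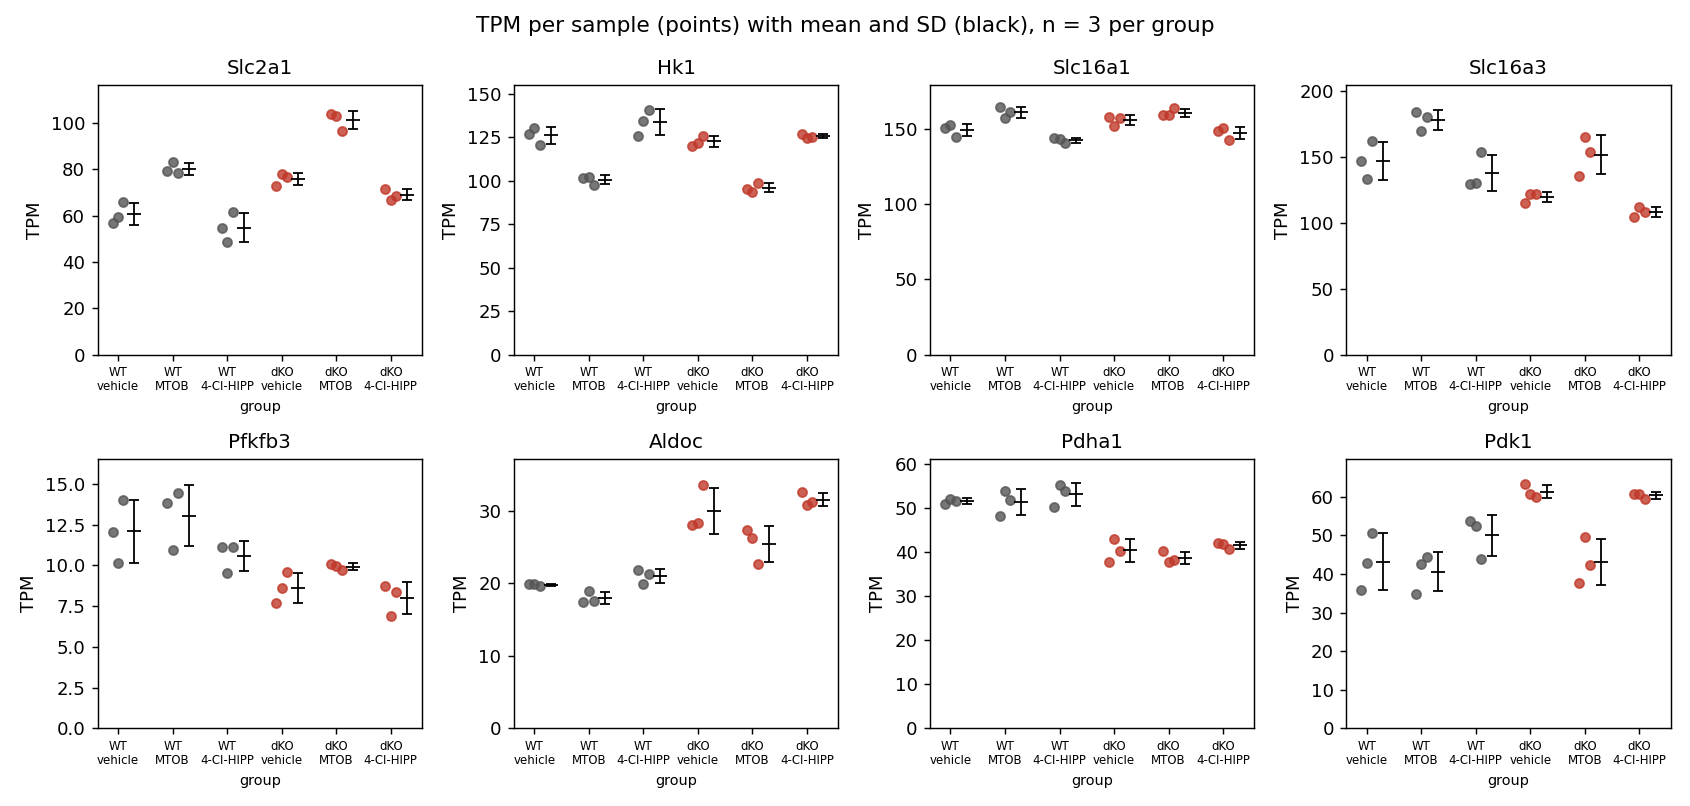
TPM per sample (points, wildtype in grey, dKO in red) for 8 member genes in the 6 groups, with mean and SD in black, n = 3. Slc2a1 is higher with MTOB in both genotypes (78.3 to 83.2 TPM in wildtype, 96.7 to 104 TPM in dKO cells), Hk1 is lower (97.5 to 102 and 93.7 to 98.7 TPM), and Pdha1 is at most 43.1 TPM in the dKO samples and at least 48.2 TPM in the wildtype samples.

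In counts, 3 members were called higher and 6 lower in dKO cells under vehicle, where 7.01% of all tested genes were higher and 3.72% lower. Under MTOB 2 members were higher and 3 lower, against 6.98% and 4.18% of all genes, and under 4-Cl-HIPP 2 were higher and 4 lower, against 6.60% and 3.63%. None of the members, but 4.83%, 4.95% and 4.72% of all genes, also passed the fold change of 1.5. Aldoc passed it under vehicle with a pseudocount of 0.1 TPM or without dKO replicate 1 or 2, and under 4-Cl-HIPP without wildtype replicate 1, and Pdk1 passed it under vehicle without wildtype replicate 3. The members' medians were 0.00, 0.00 and -0.03, beside 0.01, 0.00 and 0.00 over all genes. The intervals of 26, 28 and 29 of the 33 rows lay within 1.5-fold; Pfkfb3, Aldoc and the second Aldoa row reached beyond it in each comparison, joined in some by Hk3, Gpd2, Pdp1 and Pdk1. Leaving out dKO MTOB replicate 3 or wildtype MTOB replicate 1 left 3 of the 5 calls under MTOB, those of Slc2a1, Aldoc and Pdha1. Fitting only the 2 groups compared left 5 of 9 calls under vehicle, without Pdk1, Pfkl, Slc16a3 and Pfkfb3, and 3 of 5 under MTOB.

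The other 20 rows passed in none of the 7 comparisons: the hexokinases Hk2 and Hk3, the phosphofructokinases Pfkm and Pfkp, both Aldoa rows, Gapdh, Pgam1, Eno1, Pkm, Pfkfb4, Tigar, Gpd2, Mpc1, Mpc2, Pdhb, Dlat, Dld, Pdk3 and Pdp1. Pdp1, the phosphatase that switches pyruvate dehydrogenase back on, was among the nearest, with log2 fold changes of 0.41 and 0.38 in dKO cells under vehicle and MTOB (limma adjusted p = 0.0708 and 0.0916). Mpc2, a subunit of the mitochondrial pyruvate carrier, had values of 0.31 and 0.32 under vehicle and 4-Cl-HIPP (limma adjusted p = 0.0764 and 0.0669). When the TPM of Eno1 and its near copy Eno1b were added together, the sum was lower in dKO cells under MTOB and 4-Cl-HIPP by -0.12 on the log2 scale in each (limma adjusted p = 0.0446 and 0.0358), where the Eno1 row alone had -0.11 and -0.11 (0.146 and 0.138). This setting was added after the values were seen.

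Whether the inhibitors acted differently in the absence of CTBPs was tested as the difference between their effects in the 2 genotypes. No member was called for MTOB, where 0.0916% of all genes were, and 1 had an unadjusted p below 0.05, beside 1128 of all genes. That member was Pdk1, which fell less with MTOB in wildtype than in dKO cells. The wildtype minus dKO difference was 0.43 on the log2 scale (95% interval 0.06 to 0.80, limma adjusted p = 0.675). This difference did not pass the test, although Pdk1 was called in dKO cells and not in wildtype cells. For Slc2a1 the difference was -0.01 (95% interval -0.23 to 0.20) and for Hk1 0.03 (-0.10 to 0.15). For 4-Cl-HIPP 0 members were called and none had an unadjusted p below 0.05, where 0% of all genes were called and 734 had an unadjusted p below 0.05. The intervals of 30 rows for MTOB and 28 for 4-Cl-HIPP lay within 1.5-fold.

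Because TPM are per length, the shares of isozymes can be read within a sample; they describe the same values and were not tested. Hk1 made up 69.3 ± 2.41% of the summed hexokinase TPM (Hk1, Hk2 and Hk3) in wildtype cells with vehicle, 62.8 ± 0.966% with MTOB and 74.1 ± 3.47% with 4-Cl-HIPP. In dKO cells it made up 71.2 ± 0.710%, 63.6 ± 2.77% and 74.3 ± 2.10%. The MTOB range lay below the vehicle range in both genotypes. Hk2, the inducible hexokinase, held most of the rest, from 27.7 ± 2.37% to 33.5 ± 2.18% in wildtype and from 24.6 ± 0.874% to 31.8 ± 2.15% in dKO cells with MTOB, and Hk3 went from 2.97 ± 0.258% to 3.71 ± 1.21% and from 4.22 ± 0.168% to 4.59 ± 0.771%.

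The mean shares of the lactate transporters and the pyruvate dehydrogenase kinases also stood apart between genotypes under vehicle. MCT4 (Slc16a3) made up 49.6 ± 3.08% of the 2 transporters in wildtype and 43.5 ± 1.20% in dKO cells with vehicle, and 52.5 ± 0.505% and 48.5 ± 2.44% with MTOB. Pdk1 made up 58.6 ± 4.25% of Pdk1 and Pdk3 in wildtype and 67.1 ± 1.20% in dKO cells with vehicle, and 57.1 ± 5.26% and 56.1 ± 3.13% with MTOB. Pfkfb3 made up 59.8 ± 4.50% of Pfkfb3 and Pfkfb4 in wildtype and 51.7 ± 3.04% in dKO cells with vehicle. Aldoa supplied 98.0 to 98.9% of aldolase TPM in each group mean, so Aldoc, although higher in dKO cells, went from 1.22 ± 0.046% to 1.82 ± 0.185% under vehicle. Of the phosphofructokinases, Pfkl and Pfkp held 46.6 ± 0.633% and 45.5 ± 0.569% in wildtype and 41.2 ± 2.95% and 51.0 ± 2.88% in dKO cells with vehicle, and the 2 pyruvate carrier subunits stayed near equal, with Mpc1 at 51.0 ± 0.571% and 47.5 ± 1.87%.

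**Figure D4:**
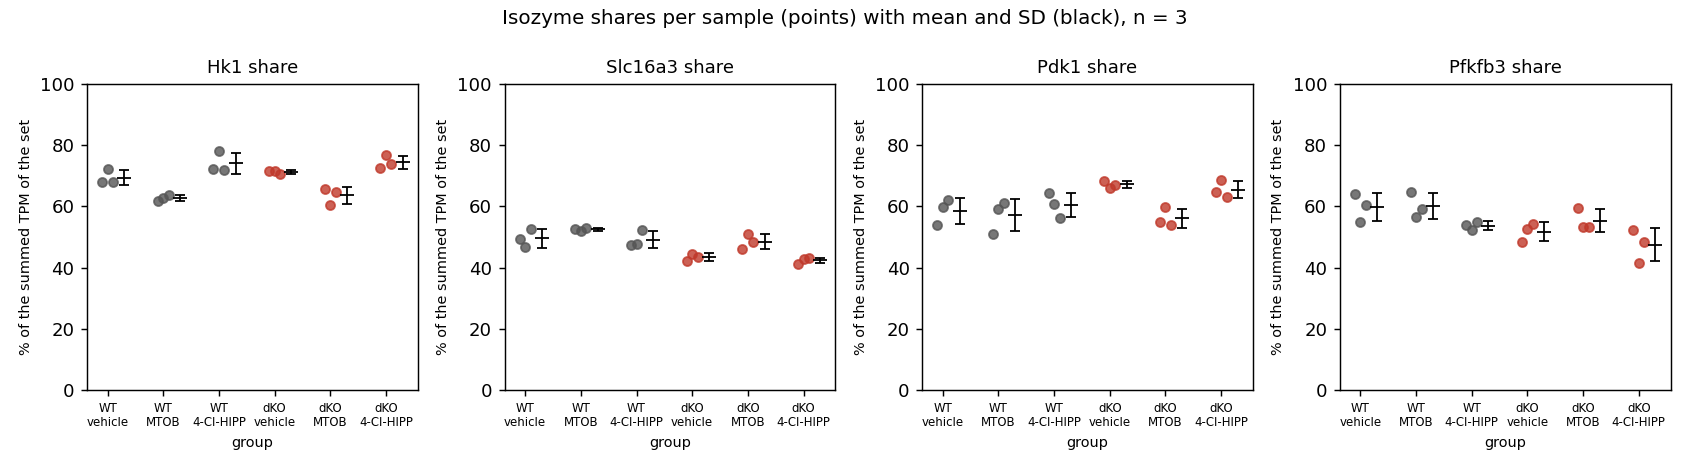
Share of Hk1 among hexokinases, of Slc16a3 among the 2 lactate transporters, of Pdk1 among the 2 pyruvate dehydrogenase kinases and of Pfkfb3 among Pfkfb3 and Pfkfb4, in percent of the summed TPM, per sample (points, wildtype in grey, dKO in red) with mean and SD in black, n = 3. The Hk1 share is lowest with MTOB in both genotypes, with means of 62.8% and 63.6%.

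Other genes of glycolysis and pyruvate metabolism outside the member list were read from the same fit. Of 33 further symbols 23 were listed and 21 tested. With MTOB 2 of the 21 were called lower in each genotype and 0 higher: Slc2a6 (a lysosomal hexose transporter; -0.40) and Gpd1l (a glycerol-3-phosphate dehydrogenase; -0.24) in wildtype, and Pdpr (a regulator of the pyruvate dehydrogenase phosphatase; -0.42) and Gpd1l (-0.36) in dKO cells, on the log2 scale. Of all tested genes 3.46% and 3.54% were called lower. With 4-Cl-HIPP none was called in either genotype, where 1 and 3 had an unadjusted p below 0.05. In dKO against wildtype cells under vehicle Eno3, the muscle enolase, rose from 40.1 ± 2.12 to 127 ± 9.20 TPM (log2 fold change 1.63, limma adjusted p = 1.86e-09), Gpd1l rose from 37.0 ± 3.58 to 51.8 ± 0.770 TPM, and Slc2a6 fell from 28.7 ± 0.392 to 16.6 ± 2.11 TPM. Those 3 genes were called in the same direction under MTOB and 4-Cl-HIPP. Over the 21 genes 2 were higher and 1 lower under vehicle, 2 and 3 under MTOB, and 2 and 2 under 4-Cl-HIPP, where 7.01%, 6.98% and 6.60% of all tested genes were higher and 3.72%, 4.18% and 3.63% lower. The list's median was 0.03, -0.04 and -0.09, beside 0.01, 0.00 and 0.00 over all genes.

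Of 11 genes for factors that regulate glycolytic transcription or sense glucose, 9 were tested, and the same 2 were called with MTOB in each genotype, 1 higher and 1 lower, beside 3.80% and 3.46% of all tested genes in wildtype and 3.04% and 3.54% in dKO cells. Hif1a, the oxygen-regulated subunit of hypoxia-inducible factor 1, rose from 47.8 ± 3.33 to 64.4 ± 2.56 TPM in wildtype and from 38.4 ± 1.61 to 52.5 ± 5.98 TPM in dKO cells (log2 fold changes 0.42 and 0.44, limma adjusted p = 0.00135 and 0.00133). Txnip, which restrains glucose uptake, fell from 173 ± 6.63 to 148 ± 4.81 TPM in wildtype and from 204 ± 10.7 to 151 ± 8.74 TPM in dKO cells (-0.22 and -0.44, limma adjusted p = 0.0109 and 3.75e-05). With 4-Cl-HIPP 0 of the 9 were called in either genotype, and none had an unadjusted p below 0.05. In dKO against wildtype cells Hif1a was lower in all 3 comparisons (-0.31, -0.30 and -0.29) and Txnip was higher under vehicle and 4-Cl-HIPP (0.24 and 0.32). The list's median was 0.06 with MTOB in both genotypes.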

How the data were processed

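Libraries of RNA from 18 samples were made with an unstranded mRNA kit; the labels name polyA RNA and the methods an rRNA depletion. Per the labels and the study's methods the authors quantified reads with Salmon 1.9.0 and GC bias correction on GENCODE M28 transcripts (GRCm39), imported them with tximport and used DESeq2 1.44.0. The deposited table holds TPM per gene and sample (columns sum to 999766 to 999897, so depth is unknown and no counting interval is given) and, as a signal column, the authors' mean normalized count over all samples. Its columns of the authors' own comparisons of each inhibitor with vehicle (log2 fold changes and adjusted p-values) were not used.

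Genes above the 10th percentile of the mean normalized count (0.222) were tested: log2(TPM + 1), 6 group means over 18 samples, limma 3.58.1 (R 4.3.3), variances moderated by empirical Bayes towards a trend on the mean normalized count, and a call at a Benjamini-Hochberg adjusted p below 0.05. A fold change on this scale understates that of low genes. The same fit was also run on simulated counts with independent replicates and a fixed dispersion, a setting that differs from these data. No support for the calls is drawn from that run. The libraries are described as biological triplicates without culture days, so p-values measure the spread between them; replicates correlated at 0.983 to 0.987 and no batch was labelled. Values in every sample were given for the 3 members with the largest fold change among those called in each comparison, and of other lists up to 3 called genes a comparison were named. Motifs were searched in the 250 bases before the canonical start (GENCODE M39; 16293 of 16383 identifiers matched) with Python 3.11.15. The members, lists and tests were chosen with earlier results of these data known. Alternatives were the pseudocount, the filter, the scaling, the variance trend, the samples fitted, a replicate block and leaving out each sample.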

Additional observations from a re-analysis of the deposited data

How the results depend on the processing

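No called fold change of a member changed sign under any alternative run, but the members' medians with MTOB, near 0, turned from -0.01 to 0.01 in wildtype and from 0.00 to 0.02 in dKO cells under median-ratio scaling. Of the counts of members called, 120 stayed within 1.5 times and 9 did not. Among the 120 are all counts for 4-Cl-HIPP against vehicle and for the differences between genotypes. Those were 0 in every run, so all 9 that moved were among the other comparisons. Fitting only the groups compared left 2 members called with MTOB in dKO cells (6 in the fit over all groups), 5 in dKO against wildtype under vehicle (9) and 3 under MTOB (5); without the variance trend the last was also 3. Leaving out 1 sample at a time gave 3 to 4 with MTOB in dKO cells, 3 to 7 in dKO against wildtype under MTOB, 2 to 3 with MTOB in wildtype, 6 to 9 under vehicle, 5 to 9 under 4-Cl-HIPP and 0 each time for 4-Cl-HIPP against vehicle in both genotypes and for the differences between genotypes. Of the 29 calls of a member in a comparison, 16 held under all 13 alternatives and 13 were lost under some. Slc16a1 with MTOB in wildtype lost it under 9 of 13 alternatives (limma adjusted p up to 0.198), Gpi1 with MTOB in dKO cells under 8 (0.187), Pdk1 and Slc16a3 there under 6 each (0.0900 and 0.119) and Pgk1 under 2 (0.0955). In dKO against wildtype under vehicle Slc16a3 lost it under 7 (0.144), Pfkl under 6 (0.179), Pfkfb3 under 5 (0.153) and Pdk1 under 2 (0.0764), under MTOB Tpi1 lost it under 6 (0.217) and Ldha under 4 (0.106), and under 4-Cl-HIPP Slc16a3 lost it under 3 (0.0654). Slc2a1 and Hk1 with MTOB in both genotypes and Aldoc in the 3 genotype comparisons kept their call under all 13. Fitting only the groups compared also ended the call of Slc2a1 in dKO against wildtype under 4-Cl-HIPP (limma adjusted p = 0.101). Same-numbered replicates correlated at -0.133 to 0.0909 in their deviations from the group means. These correlations were low, but with 3 samples a group they cannot exclude a shared round of culture. With the replicate block Slc16a3 was called and Slc16a1 was not with MTOB in wildtype, which left 3 members called, and Pdp1 and Pfkfb3 were gained in genotype comparisons; each of the 3 vehicle samples correlated best with its own number between the genotypes. Over all genes, fitting only the groups compared lowered the calls with MTOB from 1189 to 699 in wildtype and from 1078 to 305 in dKO cells, and those with 4-Cl-HIPP from 60 to 24 and from 82 to 9. Median-ratio scaling turned the 498 higher and 580 lower calls with MTOB in dKO cells into 589 and 464, and the 66 higher and 16 lower calls with 4-Cl-HIPP in dKO cells into 64 and 29; the members' medians were then -0.08 and -0.07 with 4-Cl-HIPP in wildtype and dKO cells, with 23 and 25 still below 0. The cause of these shifts was not tested. Depth is unknown in TPM, and 3 samples a group limit each interval.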

Other observations

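Pathways that branch from glycolysis or take up its products were read with the same fit. In the pentose phosphate pathway, which leaves glycolysis at glucose 6-phosphate and makes NADPH, 2 of 8 genes were called higher with MTOB in each genotype and 0 lower, beside 3.80% of all tested genes higher in wildtype and 3.04% in dKO cells. Pgd, 6-phosphogluconate dehydrogenase, rose from 328 ± 4.44 to 399 ± 6.69 TPM (SD, n = 3) in wildtype and from 368 ± 3.83 to 483 ± 2.89 TPM in dKO cells (log2 fold changes 0.28 and 0.39, limma adjusted p = 9.79e-07 and 2.63e-08). G6pdx, the enzyme that opens the pathway, rose by 0.22 and 0.15 on the log2 scale. Against wildtype, dKO cells had 3, 4 and 3 of the 8 called higher under vehicle, MTOB and 4-Cl-HIPP and 0 lower, beside 7.01%, 6.98% and 6.60% of all tested genes higher. Taldo1, transaldolase, was at 251 ± 15.6 and 429 ± 16.8 TPM under vehicle (log2 fold change 0.77, limma adjusted p = 2.50e-08), with G6pdx and Pgd also called in all 3 and H6pd called under MTOB. With 4-Cl-HIPP 0 of the 8 were called in either genotype, where 0 and 1 had an unadjusted p below 0.05 in the limma fit.

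All 15 genes of the citric acid cycle had a log2 fold change below 0 with MTOB in both genotypes, with medians of -0.09 and -0.12 beside -0.01 and -0.01 over all genes. The same 3 passed the test in each: Cs (citrate synthase; -0.13 and -0.17), Idh3g (-0.17 and -0.19) and Sdhd (-0.16 and -0.15), beside 3.46% and 3.54% of all tested genes called lower. Some of the others barely moved: in dKO cells Fh1 was at 131 ± 9.86 TPM with vehicle and 131 ± 12.8 TPM with MTOB. The signs were not read again under median-ratio scaling. With 4-Cl-HIPP 0 were called in either genotype (0 and 3 with an unadjusted p below 0.05 in the limma fit), and the medians were 0.01 and -0.03. In the malate-aspartate shuttle, which carries the reducing power of cytosolic NADH into mitochondria, 0 of 7 were called with MTOB in wildtype (2 with an unadjusted p below 0.05 in the limma fit) and Got1 was called lower in dKO cells (-0.15). Got2, the mitochondrial aspartate aminotransferase, was higher in dKO than in wildtype cells in all 3 comparisons (0.33, 0.29 and 0.34 on the log2 scale), and 2 of 7 were called higher in each, against the 7.01%, 6.98% and 6.60% above. Of 13 tested targets of hypoxia-inducible factor 1 outside glycolysis, P4ha1, a collagen prolyl hydroxylase, was called higher with MTOB in both genotypes (0.27 and 0.27). Against wildtype, dKO cells had Ndrg1 (2.61 ± 0.622 against 9.74 ± 1.66 TPM under vehicle) and Ddit4 (3.93 ± 1.37 against 12.1 ± 0.631 TPM) called higher and Vegfa (13.9 ± 0.301 against 10.8 ± 0.286 TPM) called lower in all 3 comparisons. Of these 13, 2 were higher and 3 lower under vehicle, 2 and 1 under MTOB, and 3 and 2 under 4-Cl-HIPP, where 3.72%, 4.18% and 3.63% of all tested genes were lower and the shares higher are those above. With 4-Cl-HIPP 0 of the 13 were called in either genotype (2 and 3 with an unadjusted p below 0.05 in the limma fit), with medians of 0.14 and 0.13.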
